A study of Mus musculus with 12 samples.

Results

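RNA of chip-enriched mouse blood taken 7 days after a burn/tenotomy injury (Day7) was compared with the same material taken 1 day after injury (Day1). Each side holds 4 libraries, chosen by the time in the sample titles, so 8 of the 12 libraries of the series enter the contrast. All the mice were wild type and all had received the combined burn and tendon-cutting injury. The labels give no strain or age, and uninjured mice were not analysed here. Whole blood had been passed through a microfluidic sorter, the iChip, and the labels name cMPCs beside blood cells as what was profiled. The labels do not spell out cMPC, which is read here as circulating mesenchymal progenitor cell. The contrast covers 10109 of 37583 genes, those that reached a value of 1 in 4 or more of the 8 libraries. Whether each replicate came from its own animal is not said in the labels. The p-values therefore reflect only how these samples vary, and part of that variation may be technical. In such bulk RNA, fewer cells of a type and less RNA per cell cannot be told apart.

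Burn/tenotomy is a mouse model of heterotopic ossification, the growth of bone in soft tissue through a cartilage stage that depends on BMP and TGF-beta signals. Platelets and reticulocytes, the youngest red cells, have no nucleus and carry RNA left from megakaryocytes and erythroblasts. Immediate early genes such as Fos and Egr1 are switched on within minutes of a stimulus, and their transcripts are short-lived.

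Library totals ran from 5257418 to 11209057 reads at Day1 and from 8617538 to 10503804 at Day7. A read was worth 0.0314 to 0.124 deposited units at Day1 and 0.0688 to 0.617 at Day7, and 0 reads in the shallowest library on this scale, Day7 replicate 3, allow a value of up to 1.85 (3 reads). Genes with at least 1 read numbered 14318 ± 1725 at Day1 and 10854 ± 2407 at Day7 (SD, n = 4 each). Haemoglobin genes took 16.1% to 64.1% of the reads at Day1 and 17.6% to 68.7% at Day7. Reads mapped to 4 Y-linked genes in Day1 replicates 2, 3 and 4 (603, 422 and 853 reads), with 0 in Day1 replicate 1 and in all Day7 libraries. Xist, an RNA of female cells, had deposited values of 91.0, 0.565, 0 and 0 in Day1 replicates 1 to 4. At Day7 its values were 15.6, 7.85, 5.55 and 23.9. Time after injury is therefore unevenly mixed with Y-linked reads, and so with sex as these genes mark it. Only Day1 replicate 1 matches the Day7 libraries in this respect. Effects of time and of sex cannot be told apart in the other Day1 libraries. Log2 values of the tested genes correlated at 0.62 to 0.81 between Day1 libraries, at 0.58 to 0.80 between Day7 libraries and at 0.37 to 0.68 between the groups, as a description over genes that are not independent.

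Genes of platelets were among those higher at Day7, and genes of mesothelium, extracellular matrix and the immediate early response were among those lower. Of 10109 genes, 296 (2.93%) rose and 497 (4.92%) fell at an adjusted p under 0.05, together 793 (7.84%). On the deposited scale, the libraries of the groups did not overlap for 932 genes in the upward direction (9.22%) and for 1452 in the downward direction (14.4%). The median log2 difference of all tested genes was -0.43. Scaling to all reads moved that median to -1.84 and the calls to 12 higher and 3681 lower, scaling to reads outside haemoglobin to -1.93 with 20 and 3268, and median-of-ratios scaling to -0.65 with 198 and 753. A difference is always that of mean log2(value + 1), Day7 minus Day1, which understates the change of low genes.

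The number of calls rested on single libraries and on the test. Without Day1 replicate 2, 3 or 4, the genes higher numbered 3, 0 and 1 and the genes lower 14, 3 and 21. Without Day7 replicate 2, 3 or 4 the counts were 12, 27 and 22 higher and 40, 49 and 111 lower, and without Day1 replicate 1 they were 115 and 428. Leaving out Day7 replicate 1 gave 504 higher and 533 lower. With a term for Y-linked reads, limma called 0 genes (unadjusted p under 0.05 in 1677 genes, and in 2996 when the term was left out). Genes called by edgeR's quasi-likelihood test on the recovered reads were Meg3, a long non-coding RNA, and Lamb2, a laminin chain, both lower (unadjusted p under 0.05 in 2088 genes). DESeq2 called 500 higher and 1046 lower. The counts given below for gene groups are those of the fit to all libraries without that term, and under the term every group count is 0. They stand beside the shares over all tested genes, 2.93% higher and 4.92% lower. Among the gene lists, those of BMP or TGF-beta targets, basement membrane and imprinted genes kept at least 1 called member whichever single Day1 or Day7 library was left out. Every other list with called genes went to 0 for at least 1 of these libraries.

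Day1 replicate 1, which had no Y-linked reads, lay above every Day7 library for 471 of the 497 genes that fell (30.4% of all tested genes did so). It lay below every Day7 library for 279 of the 296 that rose (18.5% of all tested genes did so). It was the lowest Day1 library for 339 of the 497 (68.2%, against 33.5% of all tested genes). Day7 replicate 3 had 0 reads for 415 of the 497 (83.5%, against 34.7% of all tested genes). In all Day7 libraries 43 of the 497 had 0 reads (8.65%, against 0.564% of all tested genes). These counts describe genes already called with the same libraries and are no test.

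**Figure D1:**
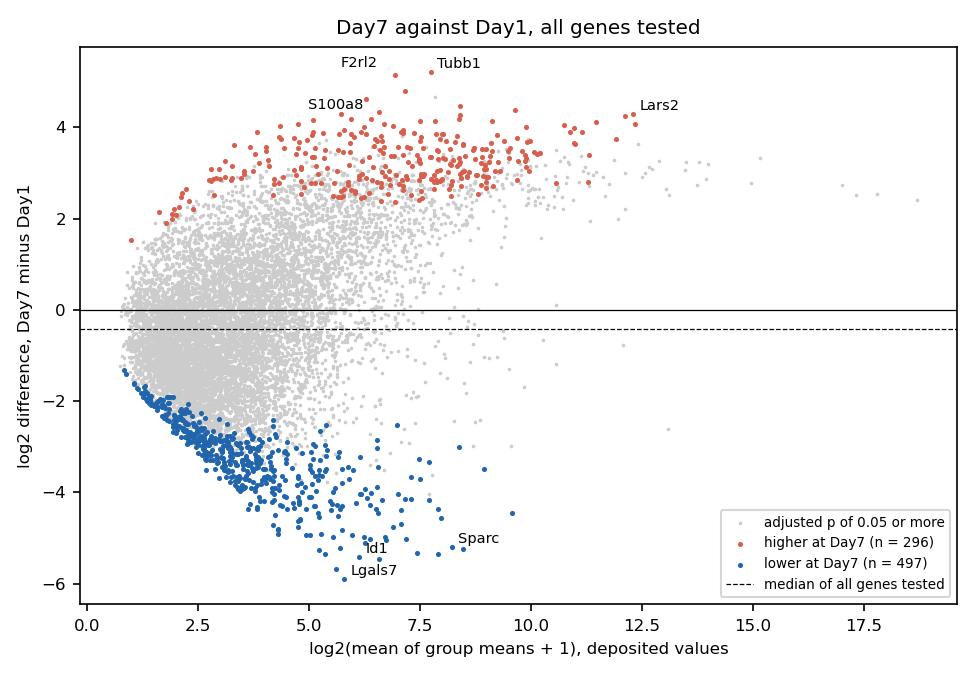
Log2 difference, Day7 minus Day1, on the y axis against log2 of the mean of the group means plus 1 on the x axis for the 10109 tested genes. Red points are the 296 genes that rose, blue points the 497 that fell and grey points the rest; the dashed line is the median of all genes, -0.43, and many of the genes that fell lie along the lower edge, where Day7 values are near 0.

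Among platelet surface receptors, 8 of 13 tested members rose and 0 fell. On the deposited scale, all Day7 libraries lay above all Day1 libraries for 12 of the 13 (9.22% of all tested genes did so). Gp6, the platelet collagen receptor (ENSMUSG00000078810), had deposited values of 7.17, 9.36, 1.97 and 0.584 at Day1 and 96.5, 120.4, 139 and 35.2 at Day7, in the order of replicates 1 to 4. The lowest Day7 library stood above the highest Day1 library (log2 difference 4.30 ± 0.99 SE, adjusted p = 0.0234). Gp1bb, a chain of the receptor for von Willebrand factor, had 102, 573, 333 and 132 at Day1 and 2694, 5123, 3966 and 3057 at Day7 (log2 difference 3.99 ± 1.14 SE, adjusted p = 0.0386). Clec1b, the receptor for podoplanin, had means ± SD of 134 ± 108 at Day1 and 1746 ± 492 at Day7, and Cd9, a tetraspanin abundant on platelets, had means of 438 ± 467 at Day1 and 5186 ± 2022 at Day7 (n = 4 in each group here and below). The others that rose were Gp1ba, Gp5, Cd226 and Itga2, with log2 differences of 3.88, 3.66, 3.45 and 2.88. Gp9, the remaining chain of that receptor complex, had a difference of 3.75 (adjusted p = 0.0601), and the fibrinogen receptor chains Itga2b and Itgb3 had 2.81 (adjusted p = 0.110) and 2.48 (adjusted p = 0.109).

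Of 21 tested platelet signalling genes, 9 rose and 0 fell. F2rl2, a thrombin receptor of mouse platelets (ENSMUSG00000021675), had values of 4.94, 12.2, 15.8 and 0.467 at Day1 and 247, 257, 257 and 179 at Day7. Its Day7 libraries were close to each other and its Day1 libraries ranged widely below them (log2 difference 5.14 ± 1.07 SE, adjusted p = 0.0158). Tbxas1, thromboxane synthase, rose from 6.55, 19.6, 15.9 and 1.75 to 159, 211, 428 and 304 (log2 difference 4.81 ± 1.10 SE, adjusted p = 0.0234). The ADP receptor P2ry12 had a difference of 3.57 ± 1.02 SE, the ATP-gated channel P2rx1 3.75 ± 1.13 SE, the lipoxygenase Alox12 3.69 ± 1.09 SE, the G-protein regulator Rgs18 3.85 ± 1.04 SE and the integrin activator Fermt3 3.45 ± 1.05 SE. Plek, pleckstrin, and Rap1b, a small GTPase of integrin activation, were the other two that rose (3.27 and 2.95). The thromboxane receptor Tbxa2r was at 2.000 ± 1.41 at Day1 and 2.81 ± 2.14 at Day7 and did not pass the test (difference 0.36).

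Among proteins of platelet granules and cytoskeleton, 13 of 23 tested members rose and 0 fell, and for 21 the groups did not overlap. Tubb1, the tubulin of the platelet marginal band (ENSMUSG00000016255), had values of 11.1, 7.66, 8.80 and 10.7 at Day1 and 660.1, 462, 312 and 234 at Day7. All Day1 libraries were near 10 and all Day7 libraries far above them, and the ratio of the group means was 43.5 (log2 difference 5.21 ± 0.88 SE, adjusted p = 0.00696). Treml1, a receptor stored in alpha granules, had 34.6, 139, 81.8 and 28.6 at Day1 and 902, 1179, 1102 and 993 at Day7, with narrow spread at Day7 (log2 difference 4.14 ± 1.17 SE, adjusted p = 0.0382). The chemokine Ppbp averaged 750.3 ± 626 at Day1 and 9635 ± 2857 at Day7 (difference 4.06 ± 1.16 SE), and the related chemokine Pf4 averaged 1094 ± 1131 at Day1 and 9838 ± 2864 at Day7 without passing (difference 3.64, adjusted p = 0.0600). Myl9, a myosin light chain, had 161, 859.9, 557 and 376 at Day1 and 6464, 13310, 7663 and 5923 at Day7 and rose (log2 difference 4.26 ± 1.17 SE, adjusted p = 0.0354). Thbs1, thrombospondin 1, had 117, 214, 280.4 and 81.5 at Day1 and 1270, 1594, 1486 and 2356 at Day7 (log2 difference 3.39 ± 0.99 SE, adjusted p = 0.0406), and Selp, P-selectin, F5, coagulation factor V, and Srgn, the granule proteoglycan serglycin, rose by log2 differences of 3.44, 3.64 and 3.83.

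The median log2 difference was 3.66 for the receptors, 2.95 for the signalling genes and 3.27 for the granule and cytoskeleton list, against -0.43 over all genes. Scaled to all reads these medians were 1.58, 0.79 and 1.17 against -1.84, with 0, 1 and 1 members called. The medians thus stayed above 0 and most calls were lost. The receptor list took 129284 of 11209057 reads in Day1 replicate 2 and 26497 of 9096780 in Day7 replicate 3, a smaller share. As a share of all reads, the groups therefore overlapped for the sum of this list. With the term for Y-linked reads the medians were 4.54 for receptors and 3.53 for signalling genes, and all 3 lists had 0 members called. Counts of called receptor, signalling and granule genes were 0, 0 and 0 without Day1 replicate 3, 0, 0 and 1 without Day1 replicate 2 or 4, and 1, 2 and 4 without Day1 replicate 1. They were 7, 8 and 14 without Day7 replicate 1, 0, 1 and 1 without Day7 replicate 2, 0, 1 and 2 without Day7 replicate 3 and 1, 1 and 2 without Day7 replicate 4. The mean level of the 3 lists varied by 0.68 to 1.12 log2 units among the Day7 libraries, less than the mean rise of 2.60 to 3.32.

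Sequence of the genes that moved together is shown for the platelet members with a GATA motif, the site of the factor Gata1 that governs megakaryocyte genes. The letters AGATAA were searched on both strands in the 250 bases before the gene starts of RefSeq (GRCm38.p6), where 9 of the 13 tested receptors, 19 of 21 signalling genes and 20 of 23 granule genes had an entry. Matches were found in 2 receptors, 5 signalling genes and 0 granule genes, against 6.10% of 7246 tested genes with an entry and 10.2% of all 27025 promoters. The letters CCGGAAGT, an ETS factor motif, matched in 0 of these promoters and in 6.11% of the tested genes. Every gene that rose and held a GATA match is printed, 5′ to 3′ on the gene's strand over 120 bases, with the match in capitals (TTATCT is AGATAA on the other strand). Gp5 lies at chr16:30310782-30310901 (minus strand), Gp6 at chr7:4397774-4397893 (minus strand), P2rx1 at chr11:72998898-72999017 (plus strand) and F2rl2 at chr13:95696800-95696919 (plus strand). A match describes the letters only.
Gp5: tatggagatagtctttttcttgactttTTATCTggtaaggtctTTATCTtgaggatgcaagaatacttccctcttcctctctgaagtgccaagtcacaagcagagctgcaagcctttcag
Gp6: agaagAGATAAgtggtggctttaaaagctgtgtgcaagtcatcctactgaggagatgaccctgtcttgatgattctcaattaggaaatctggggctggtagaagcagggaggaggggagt
P2rx1: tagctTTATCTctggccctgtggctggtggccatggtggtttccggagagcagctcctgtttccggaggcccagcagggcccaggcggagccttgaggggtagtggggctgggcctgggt
F2rl2: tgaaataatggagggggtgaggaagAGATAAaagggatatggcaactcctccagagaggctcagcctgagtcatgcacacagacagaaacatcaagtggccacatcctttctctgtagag

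**Figure D2:**
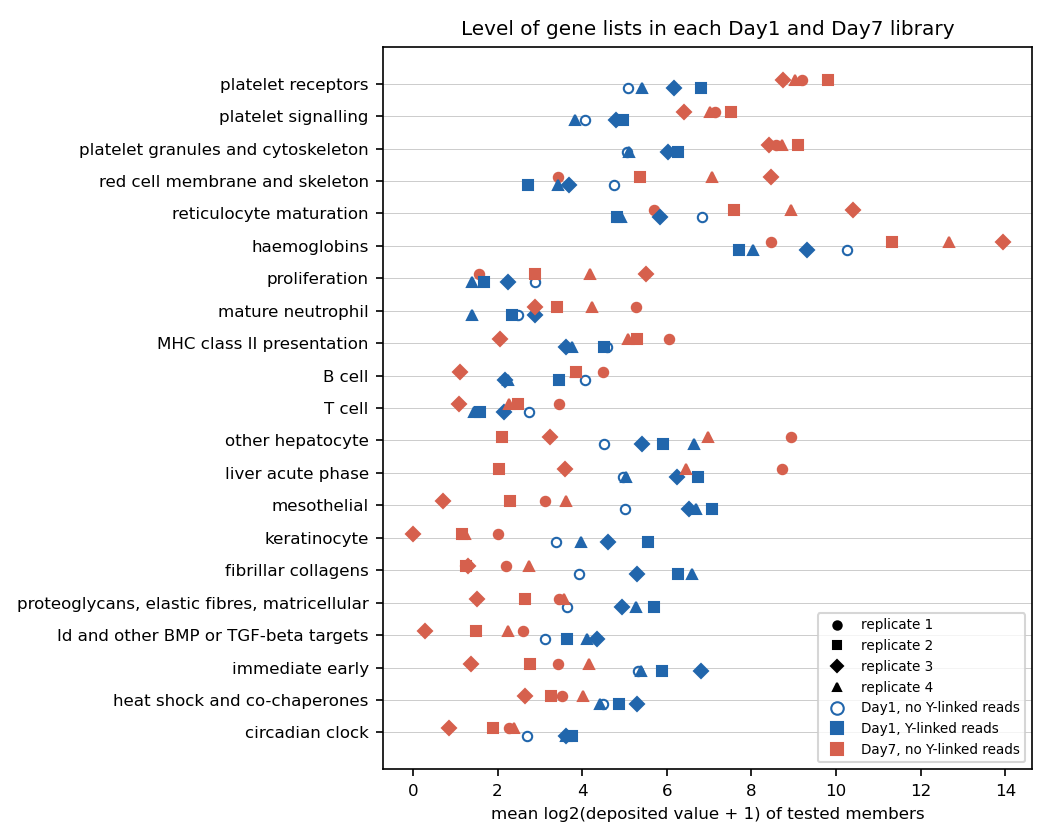
Mean log2(deposited value + 1) of the tested members (x axis) of 21 gene lists (y axis) in each Day1 library (blue) and Day7 library (red); marker shape is the replicate number and open circles are the Day1 library with 0 Y-linked reads. The 4 Day7 libraries lie together above all Day1 libraries for the platelet lists and are spread over 4.69 to 5.46 log2 units for the reticulocyte, red cell membrane and haemoglobin lists.

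Transcription factors of the megakaryocyte and erythroid lineages included 3 of 16 tested members that rose and 0 that fell. Nfe2, needed for platelet release, had values of 33.5, 55.1, 49.8 and 24.99 at Day1 and 683, 739.9, 282 and 705 at Day7 (log2 difference 3.82 ± 0.84 SE, adjusted p = 0.0208). Gata1 had 19.9, 13.8, 18.8 and 5.41 at Day1 and 171, 149.9, 86.4 and 182 at Day7, again without overlap (log2 difference 3.34 ± 0.86 SE, adjusted p = 0.0286). Lmo2, a partner of Tal1, spanned 7.43, 62.4, 1017 and 274 at Day7 and overlapped Day1 (difference 2.79, adjusted p = 0.124). The list's median was 2.10, and 0.05 when scaled to all reads. Under that scaling 0 members were called higher and 3 lower, beside 12 and 3681 of all tested genes. With the deposited scaling, 5 members were called without Day7 replicate 1 and 0 to 2 without any other Day1 or Day7 library.

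Red cell genes had positive differences of similar size, with far larger spread between the Day7 libraries. Of 8 tested haemoglobin genes 1 rose, of 18 red cell membrane genes 3, of 20 reticulocyte genes 5 and of 16 haem synthesis and iron genes 0, and none fell. Hbb-b1, a beta globin, had 192800, 26750, 143300 and 54520 at Day1 and 51890, 408600, 1561000 and 959700 at Day7. Its Day7 replicate 1 lay below Day1 replicates 1, 3 and 4, and the difference of 2.41 ± 2.09 SE did not pass (adjusted p = 0.457). Globin genes have near-identical copies among which reads may be split. Hbq1b, a theta globin, rose (log2 difference 4.27 ± 1.11 SE, adjusted p = 0.0296) from 60.6, 5.75, 13.2 and 4.83 to 17.1, 189, 1408 and 984, although Day7 replicate 1 lay below Day1 replicate 1. Alas2, the erythroid start of haem synthesis, was at 7742, 844, 5223 and 2852 at Day1 and 2167, 14280, 181500 and 38270 at Day7 (difference 2.78, adjusted p = 0.200).

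Spna1, erythroid alpha spectrin, had 44.6, 2.10, 12.6 and 0 at Day1 and 10.7, 57.04, 1052 and 264 at Day7, so that Day7 replicate 1 fell among the Day1 libraries (log2 difference 4.15 ± 1.25 SE, adjusted p = 0.0453). Its partner Spnb1 had 24.2, 13.1, 15.9 and 19.5 at Day1 and 46.98, 101, 397 and 217 at Day7 without overlap (log2 difference 2.94 ± 0.77 SE, adjusted p = 0.0301). Cd47, found on red cells and many others, had 75.1, 111, 67.6 and 92.02 at Day1 and 412, 618, 840.1 and 793 at Day7 (log2 difference 2.90 ± 0.75 SE, adjusted p = 0.0287). Among reticulocyte genes, the heme breakdown enzyme Blvrb had 227, 44.6, 112 and 39.9 at Day1 and 134, 565, 11200 and 2732 at Day7 (log2 difference 3.90 ± 1.06 SE, adjusted p = 0.0338) and catalase, Cat, had 169, 60.9, 136 and 117 at Day1 and 342, 548, 13370 and 1639 at Day7 (log2 difference 3.64 ± 1.07 SE, adjusted p = 0.0406). Trim58, a ubiquitin ligase of late erythroid cells, was near 0 at Day1 (0.989, 0, 0 and 0) and at 1.79, 6.70, 37.6 and 46.6 at Day7 (log2 difference 3.57 ± 1.08 SE, adjusted p = 0.0457). Gabarapl2 and Atg7 of the autophagy machinery rose by 3.05 and 2.76.

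Day7 libraries followed the same order on all 4 red cell lists, replicate 3 highest, then 4, 2 and 1. Their mean levels spanned 4.06 (haem synthesis) to 5.46 (haemoglobins) log2 units, more than the mean differences between groups of 1.72 to 2.77. List medians were 2.60 for haemoglobins, 2.77 for membrane, 2.95 for reticulocyte and 1.83 for haem synthesis genes; scaled to all reads they were 0.50, 0.79, 0.89 and, with the sign reversed, -0.20. Without Day7 replicate 1, the lowest, the members called in the same order were 4, 12, 14 and 5; without any other Day7 library or Day1 replicate 2, 3 or 4 they were 0, and without Day1 replicate 1 they were 1, 3, 1 and 0. Proliferation genes had that same order of Day7 libraries: Plk1 and Cenpe, both of mitosis, rose (2 of 30 tested, 0 fell), with Plk1 at 0.865, 0.0628, 0.152 and 0 at Day1 and 2.61, 4.02, 43.8 and 16.96 at Day7 (log2 difference 3.16 ± 0.90 SE, adjusted p = 0.0388). Nusap1, a spindle protein, reached 11.01, 45.4, 1915 and 349 at Day7 (adjusted p = 0.0734). Without Day7 replicate 1, 11 proliferation genes were called, and 0 without any other Day1 or Day7 library. The median of this list was 1.34, and -0.15 when scaled to all reads, where 1 member was called higher and 3 lower (12 and 3681 of all tested genes).

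**Figure D3:**
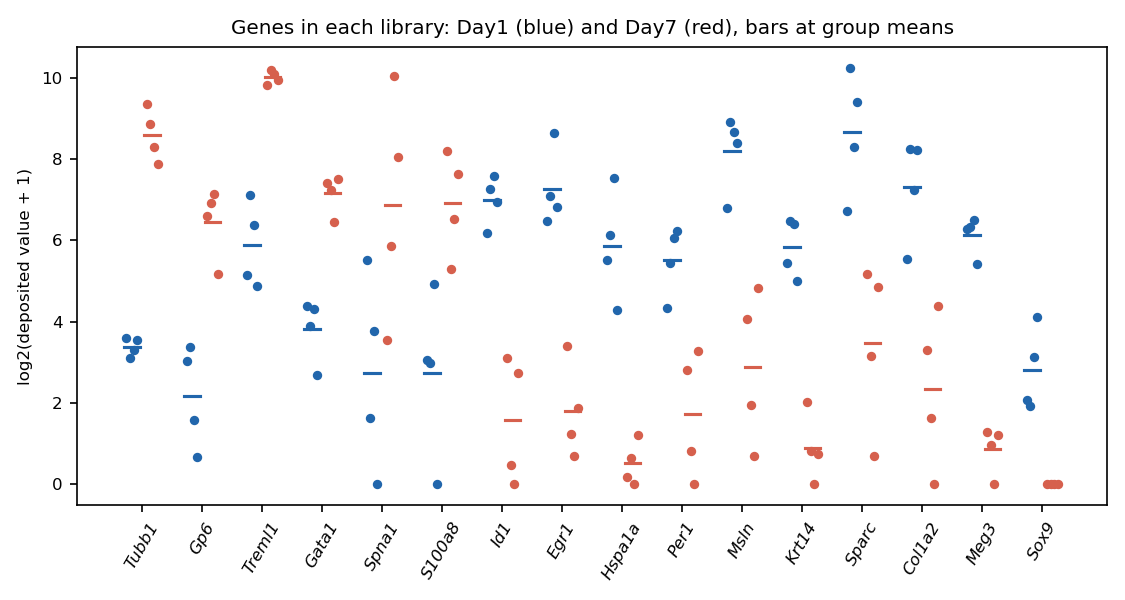
Log2(deposited value + 1) (y axis) of 16 genes in each of the 4 Day1 (blue) and 4 Day7 (red) libraries, with bars at the group means. The 4 Day7 points of Treml1 lie close together and those of Spna1 are far apart, and each of the genes that fell, from Id1 to Sox9, has at least 1 Day7 library at a value under 1.

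Of 15 tested markers of mature neutrophils, 3 rose and 0 fell. S100a8, a calcium-binding alarmin, had 7.29, 6.88, 29.4 and 0 at Day1 and 292, 38.3, 91.9 and 196 at Day7 (log2 difference 4.17 ± 1.21 SE, adjusted p = 0.0403). Its partner S100a9 had 15.2, 11.2, 38.1 and 0 at Day1 and 255, 19.3, 132 and 113 at Day7 and did not pass (adjusted p = 0.0553). Trem1, an activating receptor, had 0.494, 0.848, 0.758 and 0.0389 at Day1 and 13.2, 25.3, 7.40 and 12.6 at Day7, all Day7 libraries above all Day1 libraries (log2 difference 3.26 ± 0.72 SE, adjusted p = 0.0209). Mxd1, a MYC antagonist, rose by 3.13 ± 0.72 SE. Cxcr2, the chemokine receptor of circulating neutrophils, was too low to test, with 0 reads at Day1 and 99 at Day7. The list's median was 1.64 and 0.41 when scaled to all reads. Its summed value was 64.8 to 179 at Day1 and 459 to 1183 at Day7. Granule and precursor genes had 4 tested of 19 listed and no call, with Mpo, Elane, Ltf and Ly6g at 0 reads in all 8 libraries.

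Lists of monocytes and macrophages (18 tested), MHC class II presentation (11), B cells (16), T cells (10), NK cells (8) and eosinophils, basophils and mast cells (5) held 0 called genes. Cd74, the invariant chain, had 226, 309, 202 and 182 at Day1 and 1252, 605, 41.3 and 499.9 at Day7, and Ighm had 226, 108, 50.05 and 139 at Day1 and 239, 106, 57.4 and 100.1 at Day7, with overlap in both. Cma1, mast cell chymase, had 14.5, 2.73, 5.005 and 2.997 at Day1 and 163, 2.30, 0 and 235 at Day7, high in Day7 replicates 1 and 4. Of 12 dendritic cell genes, 2 fell. Siglech, a marker of plasmacytoid dendritic cells, had 185, 11.96, 34.9 and 51.7 at Day1 and 0.344, 0.191, 0 and 8.65 at Day7 (log2 difference -4.54 ± 1.18 SE, adjusted p = 0.0296), and Tcf4, their defining transcription factor, had 115, 26.1, 30.1 and 58.4 at Day1 and 15.1, 14.3, 0 and 5.99 at Day7 (log2 difference -2.93 ± 0.91 SE, adjusted p = 0.0485). Day1 replicate 1 was the highest library for both. No dendritic cell gene was called without any of the Day1 libraries or without Day7 replicate 2 or 3, each left out in turn, while 1 was called without Day7 replicate 4 and 2 without Day7 replicate 1.

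Mesothelial genes, which mark the lining of body cavities, fell in most cases: 20 of 24 tested members fell and 0 rose. Msln, mesothelin (ENSMUSG00000063011), had 111, 478, 407 and 339 at Day1 and 15.6, 2.87, 0.617 and 27.3 at Day7. The lowest Day1 library was above the highest Day7 library (log2 difference -5.32 ± 1.06 SE, adjusted p = 0.0145). Wt1, a transcription factor of mesothelium, had 17.2, 47.4, 49.2 and 35.8 at Day1 and 0.0688, 0.191, 0 and 0.998 at Day7 (log2 difference -4.82 ± 1.01 SE, adjusted p = 0.0158). The uroplakin gene Upk3b had 92.1, 721, 373 and 687 at Day1 and 40.7, 22.8, 0 and 56.5 at Day7 (log2 difference -4.55 ± 1.41 SE, adjusted p = 0.0484). Igfbp5 and Igfbp6, growth factor binding proteins, averaged 659 ± 487 at Day1 and 44.4 ± 67.7 at Day7 and 1415 ± 1037 at Day1 and 99.8 ± 109 at Day7. The keratins Krt7, Krt19 and Krt8 fell, with log2 differences of -4.93, -4.35 and -3.20, and so did the retinoic acid enzyme Aldh1a2, the membrane protein Gpm6a and the mucin Muc16, with -4.92, -4.93 and -3.87. Slpi, a protease inhibitor also made by other cells, did not pass.

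The median of the mesothelial list was -4.32 (-5.77 when scaled to all reads, and -4.36 with Bnc2, at 0 reads in all Day7 libraries, put at its bound). In Day1 replicate 1 the mean level of the list was 5.02, against 6.53 to 7.08 in the other Day1 libraries and 0.72 to 3.62 at Day7. With the term for Y-linked reads the median was -2.17 and 0 members were called. The count was 20 without Day1 replicate 1, 0 without Day1 replicate 2 or 3 and 1 without Day1 replicate 4. It was 20, 2, 3 and 10 without Day7 replicates 1 to 4.

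Keratinocyte genes followed the same direction, with 5 of 8 tested members lower and 0 higher. Lgals7, galectin 7 (ENSMUSG00000053522), had the largest fall of the whole contrast by the rule for named genes, from 18.9, 282, 65.2 and 66.6 to 1.03, 0, 0 and 0 (log2 difference -5.89 ± 1.05 SE, adjusted p = 0.00921). Krt14, a basal keratin, had 42.8, 88.4, 84.3 and 31.3 at Day1 and 3.10, 0.766, 0 and 0.665 at Day7 (log2 difference -4.94 ± 0.82 SE, adjusted p = 0.00696), and Dmkn, dermokine, had 16.6, 495, 165 and 149 at Day1 and 3.51, 3.25, 0 and 8.31 at Day7 (log2 difference -5.05 ± 1.11 SE, adjusted p = 0.0202). Sbsn, suprabasin, fell from 12.7, 75.3, 27.2 and 24.4 to 1.86, 0, 0 and 0, and Krt10 had a log2 difference of -2.23. Defining markers Krt1, Krt5, Lor and Ivl had 0 reads in all 8 libraries. In Day7 replicate 3 the summed value of the list's 31 members was 0, against 15.3 to 35.3 in the other Day7 libraries and 113 to 1010 at Day1. Of 9 epithelial junction genes, Cgn, cingulin, fell (log2 difference -3.31 ± 0.99 SE, adjusted p = 0.0440) and none rose.

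Each of 6 lists of extracellular matrix genes held members that fell. Of 6 fibrillar collagens 3 fell, of 11 other collagens 4, of 17 collagen folding and cross-linking enzymes 6, of 11 basement membrane genes 5, of 27 proteoglycans and matricellular genes 10 and of 14 proteases and inhibitors 5. The 1 matrix gene that rose was Thbs1, which is also on the platelet list. Col1a2, a chain of type I collagen, had 45.2, 305, 149 and 296 at Day1 and 8.87, 2.10, 0 and 19.9 at Day7 (log2 difference -4.98 ± 1.21 SE, adjusted p = 0.0254), and Col1a1 averaged 87.2 ± 50.9 at Day1 and 4.22 ± 4.13 at Day7 (adjusted p = 0.0355). Col3a1 averaged 375 ± 248 at Day1 and 37.5 ± 56.8 at Day7 and missed the threshold (difference -4.03, adjusted p = 0.0501). Col6a1 and Col6a2 of the microfibrillar collagen fell, with log2 differences of -4.11 and -3.81, and Col6a6 had 0 reads at Day7 and was at least 31.5-fold lower over pooled reads, against a floor of 3 reads over the group.

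Sparc, a collagen-binding matricellular protein, had 105, 1214, 312 and 678 at Day1 and 35.2, 7.85, 0.617 and 27.9 at Day7, so that Day1 replicate 1 was the lowest Day1 library and still above Day7 (log2 difference -5.20 ± 1.16 SE, adjusted p = 0.0215). Lamb2, called by edgeR as well, had 15.4, 39.4, 24.8 and 69.6 at Day1 and 0.138, 0, 0 and 0.333 at Day7 (log2 difference -4.90 ± 0.79 SE, adjusted p = 0.00696), on 3 reads at Day7. Mfap2, of elastic microfibrils, had 20.8, 68.4, 27.9 and 92.02 at Day1 and 0.206, 6.12, 0 and 0.333 at Day7 (log2 difference -4.61 ± 0.92 SE, adjusted p = 0.0145). Serpinh1, the collagen chaperone, averaged 97.7 ± 55.4 at Day1 and 7.82 ± 6.80 at Day7, and Pcolce, which helps cut procollagen, averaged 148 ± 104 at Day1 and 7.68 ± 5.02 at Day7; both fell. Timp2, a metalloprotease inhibitor, fell from 60.6, 590.4, 244 and 456 to 37.6, 13.4, 4.93 and 42.6 (log2 difference -3.70 ± 1.07 SE, adjusted p = 0.0404), and the serine protease Htra1 had a log2 difference of -4.38. Dcn, decorin, overlapped between groups at 189, 928, 612 and 866 at Day1 and 218, 44.02, 4.32 and 457 at Day7 (adjusted p = 0.108), and Lum, lumican, did not pass either. Medians ran from -2.21 (folding enzymes) to -3.98 (fibrillar collagens). With the term for Y-linked reads they ran from -0.81 to -1.45, with 0 members called. Without Day1 replicate 2, 3 or 4, the matrix lists held 0 called members each, apart from 1 basement membrane gene.

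The cells named in the labels were checked by their surface and regulatory markers. Of 12 tested genes of the mesenchymal progenitor surface 0 fell and 1 rose, the integrin Itgb1 (log2 difference 2.82 ± 0.82 SE, adjusted p = 0.0405), which platelets carry as well. Scaled to all reads, Itgb1 was at 0.66 and did not pass. The receptors Pdgfra and Pdgfrb were too low to test, with 63 reads at Day1 and 1 at Day7 and 196 reads at Day1 and 0 at Day7. Of 13 fibroblast regulators 4 fell: Osr1, a zinc finger factor, had 6.92, 97.9, 108 and 199.8 at Day1 and 4.47, 0, 0 and 3.99 at Day7 (log2 difference -4.82 ± 1.20 SE, adjusted p = 0.0260), and Clec3b, Tbx18 and Pdpn fell as well. Tbx18 had 0 reads at Day7 and was at least 120.2-fold lower over pooled reads. Prrx1, a limb mesenchyme factor, did not pass (difference -1.65, adjusted p = 0.0739). The surface list had a median log2 difference of -0.78, with 4 of 12 differences above 0. Its summed value was 325 to 867 at Day1 and 564 to 1095 at Day7, and without Itgb1 295 to 760 at Day1 and 144 to 761 at Day7. That of the regulators was 143 to 469 at Day1 and 57.2 to 87.4 at Day7. Their median log2 difference was -1.65, and -0.96 with the term for Y-linked reads.

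Skeletal genes were sparse. Sox9, the master factor of cartilage, had 3.21, 2.83, 7.81 and 16.2 at Day1 and 0 reads in all Day7 libraries, at least 65.5-fold lower over pooled reads (adjusted p = 0.0265); it was the only one of 4 tested cartilage genes to change. Col2a1, type II collagen, with 1874 reads at Day1 and 0 at Day7, had all its Day1 reads in replicate 4, and Ibsp, bone sialoprotein, with 4228 reads at Day1 and 1 at Day7, likewise. Neither was tested. Of the 4 tested bone genes 0 were called, and Runx2, the master factor of bone, had 63.9, 3.67, 14.8 and 28.2 at Day1 and 3.10, 0.957, 0 and 3.66 at Day7 (adjusted p = 0.0606). All 3 tested tendon genes fell: Egr1, described below, the tenascin Tnxb (-3.65) and fibromodulin, Fmod (-3.65).

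Among targets of BMP signalling, Id1 and Id3, inhibitors of helix-loop-helix factors, had some of the largest falls. Id1 (ENSMUSG00000042745) had 71.4, 153, 189.6 and 122 at Day1 and 7.57, 0.383, 0 and 5.65 at Day7 (log2 difference -5.42 ± 0.81 SE, adjusted p = 0.00374). Id3 had 87.2, 273, 351 and 398 at Day1 and 22.1, 9.57, 0 and 11.6 at Day7 (log2 difference -5.02 ± 0.90 SE, adjusted p = 0.00921). In both genes all Day1 libraries, replicate 1 included, were above all Day7 libraries. Bambi, a decoy receptor, fell as well (log2 difference -2.99 ± 0.93 SE, adjusted p = 0.0488), while Id2 averaged 48.1 ± 24.6 at Day1 and 14.5 ± 10.3 at Day7 and did not pass (difference -1.93, adjusted p = 0.145). In all, 3 of 10 tested targets of BMP or TGF-beta signalling fell and 0 rose. The number stayed between 1 and 3 when any Day1 or Day7 library was left out. The differences with the term for Y-linked reads were -5.16 for Id1, -4.34 for Id3 and -2.06 for Bambi. Under that term the list's median moved from -1.94 to -1.44.

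Upstream of these targets, 4 of 13 tested BMP ligands, receptors and antagonists fell and 0 rose. They were the type I receptor Bmpr1a (2.10, 6.97, 11.98 and 19.7 at Day1 and 1.17, 0, 0 and 0.665 at Day7; log2 difference -2.71 ± 0.78 SE, adjusted p = 0.0403), the co-receptor Rgmb, the extracellular modulator Twsg1 (17.3, 88.3, 35.3 and 102 at Day1 and 5.71, 1.53, 1.23 and 7.32 at Day7; log2 difference -3.56 ± 0.81 SE, adjusted p = 0.0227) and the follistatin-like Fstl1. The ligands Bmp2 and Bmp4 did not pass, with differences of 1.72 and -2.31. On the TGF-beta list of 12 tested genes 4 fell and 2 rose. The receptors Tgfbr2 (log2 difference -3.98 ± 1.07 SE, adjusted p = 0.0329) and Tgfbr3 fell, and so did the latency proteins Ltbp3 (log2 difference -3.83 ± 0.79 SE, adjusted p = 0.0158) and Ltbp4. The ligand Tgfb1, which platelets store, had 13.1, 13.1, 22.7 and 12.96 at Day1 and 110.2, 195, 112 and 99.4 at Day7 and rose (log2 difference 2.97 ± 0.87 SE, adjusted p = 0.0405), as did Ltbp1, a latency protein also on the platelet list (log2 difference 3.05 ± 0.84 SE, adjusted p = 0.0354). None of 11 SMAD proteins and co-repressors was called. With the term for Y-linked reads the median of the BMP list moved from -2.31 to -1.85 and that of the TGF-beta list from -1.73 to -0.95.

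Of 11 tested Wnt pathway genes 4 fell and 0 rose: the ligands Wnt5a and Wnt11, the receptor Ror1 and the agonist Rspo1. Rspo1, which is also on the mesothelial list, had 19.6, 117, 77.96 and 175 at Day1 and 7.43, 0.191, 0.617 and 10.6 at Day7 (log2 difference -4.36 ± 1.16 SE, adjusted p = 0.0318), and Wnt5a had 9.27, 15.9, 8.42 and 20.6 at Day1 and 1.86, 0.191, 0 and 0.333 at Day7 (log2 difference -3.23 ± 0.80 SE, adjusted p = 0.0260). Of 13 genes of the IGF axis 4 fell, Igfbp5, Igfbp6, Htra1 and the clearance receptor Igf2r (log2 difference -2.92 ± 0.80 SE, adjusted p = 0.0343). Igf1 did not pass (difference -0.19). Meg3, the maternally expressed long RNA (ENSMUSG00000021268), had 76.6, 79.6, 90.3 and 42.1 at Day1 and 1.45, 0.957, 0 and 1.33 at Day7, with similar values in all Day1 libraries (log2 difference -5.27 ± 0.73 SE, adjusted p = 0.00226). Its difference was -5.24 with the term for Y-linked reads. Among libraries without such reads alone, where Day1 is replicate 1 only, the difference was -5.41. Grb10, another imprinted gene, was likewise even at Day1 (22.9, 27.3, 25.2 and 28.3) and at 0.963, 0, 0 and 0.665 at Day7 (log2 difference -4.32 ± 0.83 SE, adjusted p = 0.0134). In all 4 of 12 imprinted growth genes fell, and 3 of 6 tested Hox genes fell, Hoxa5, Hoxb6 (at least 24.03-fold lower over pooled reads) and Hoxb2. The median of the imprinted list was -1.47, or -1.97 with Mirg, at 0 reads at Day7, put at its bound. With the term for Y-linked reads it moved to -0.73. The Wnt median then moved from -2.18 to -1.07 and the IGF axis median from -2.01 to -0.77. Unlike Meg3, Rspo1 was at -1.35 and Igfbp5 at -2.08 under that term.

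Immediate early genes fell broadly: 13 of 25 tested members were lower and 0 higher. Fos had 241, 404, 898 and 237 at Day1 and 15.8, 2.87, 0 and 116 at Day7 (log2 difference -5.35 ± 1.06 SE, adjusted p = 0.0145). Egr1 had 88.9, 136, 400.1 and 111 at Day1 and 9.56, 1.34, 0.617 and 2.66 at Day7 (log2 difference -5.46 ± 0.96 SE, adjusted p = 0.00891). Ier3, an early survival gene, had 31.8, 76.7, 184 and 86.5 at Day1 and 1.58, 0, 0 and 1.33 at Day7 (log2 difference -5.68 ± 1.04 SE, adjusted p = 0.00981). Day1 replicate 3 was the highest library for these 3 genes, and the groups did not overlap. Atf3, a stress factor, averaged 176 ± 109 at Day1 and 9.65 ± 8.97 at Day7, Jun 284 ± 199.9 at Day1 and 27.1 ± 21.9 at Day7 and Klf4 51.00 ± 30.9 at Day1 and 0.755 ± 0.669 at Day7 (SD, n = 4 each), and Zfp36, which destabilises cytokine messages, 166 ± 126 at Day1 and 19.1 ± 17.1 at Day7; all fell. Junb fell from 310, 441, 1231 and 293 to 137, 53.02, 8.02 and 177 (log2 difference -3.01 ± 0.89 SE, adjusted p = 0.0412), and Jund, at 200, 187, 328 and 231 at Day1 and 88.95, 289, 667 and 615 at Day7, did not pass (adjusted p = 0.723). The list's median was -2.88 (-4.63 when scaled to all reads, -2.24 under the Y-linked term). The count was 0 without Day1 replicate 3, 9, 2 and 5 when Day1 replicate 1, 2 or 4 was left out, and 14, 5, 5 and 10 when Day7 replicate 1, 2, 3 or 4 was.

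Heat shock genes were mixed, with 5 of 20 lower and 0 higher. Hspa1a and Hspa1b, near-identical inducible chaperones whose reads may be split, had 44.5, 69.02, 186 and 18.4 at Day1 and 0.138, 0.574, 0 and 1.33 at Day7 (log2 difference -5.35 ± 0.89 SE, adjusted p = 0.00696) and 99.4, 127, 326 and 30.1 at Day1 and 3.10, 4.21, 0 and 5.32 at Day7 (log2 difference -4.97 ± 1.02 SE, adjusted p = 0.0158). Hspb1, a small heat shock protein, had 71.9, 179.6, 269 and 116 at Day1 and 3.92, 1.72, 0.617 and 16.6 at Day7 (log2 difference -5.01 ± 0.86 SE, adjusted p = 0.00842), and Cryab and Dnajb1 fell, with log2 differences of -3.92 and -3.12. The constitutive chaperone Hsp90ab1 had 223, 364, 317 and 259.5 at Day1 and 111, 136, 1164 and 269 at Day7 (adjusted p = 0.933). None of 19 tested genes of ER stress, 11 MAP kinase phosphatases and 18 cytokine and NF-kB feedback genes was called, and Nfkbia averaged 243 ± 174 at Day1 and 58.7 ± 60.4 at Day7 (adjusted p = 0.0677).

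Of 19 clock genes 4 fell and 0 rose. Per1, a repressor of the clock, had 19.03, 42.8, 66.1 and 73.6 at Day1 and 6.05, 0.766, 0 and 8.65 at Day7 (log2 difference -3.79 ± 0.96 SE, adjusted p = 0.0268). Nr1d1, the nuclear receptor REV-ERB alpha, had 7.79, 46.00, 51.7 and 93.6 at Day1 and 1.65, 1.72, 2.47 and 2.33 at Day7 (log2 difference -3.65 ± 0.95 SE, adjusted p = 0.0296). Dbp and Tef, output factors of the clock, averaged 74.3 ± 39.02 at Day1 and 6.46 ± 4.46 at Day7 and 41.6 ± 14.9 at Day1 and 5.09 ± 6.28 at Day7, and both fell. Per2 was low in all libraries (2.84, 3.96, 1.74 and 1.79 at Day1 and 1.31, 2.87, 0 and 0.333 at Day7). The median of the clock list was -1.76, and -0.98 with the term for Y-linked reads. No label gives the hour of sampling. The glucocorticoid list overlaps with these genes through Per1: besides it, Cdkn1a, a cell-cycle inhibitor, fell (log2 difference -3.88 ± 0.95 SE, adjusted p = 0.0254) and so did Fkbp5 (log2 difference -3.17 ± 0.84 SE, adjusted p = 0.0310), 3 of 15 tested.

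Promoters were read too for the clock, immediate early, heat shock and BMP or TGF-beta target lists, each of which held some members that fell. The E-box CACGTG, bound by clock factors, was found in 4 of 14 clock genes with an entry and in 2 of the 4 that fell, Per1 and Tef, against 8.72% of tested genes. The CArG box, the site of serum response factor, was found in 2 of 20 immediate early genes (1 of 10 that fell, Zfp36), against 1.19%. The heat shock element, the letters GAA, TTC and GAA with 2 bases between neighbours, matched 1 of 15 heat shock genes (0 of 4 that fell, against 0.317%). The D-box TTATGTAA matched 1 of 14 clock genes (0 of 4 that fell, against 0.469%). The SMAD element GGCGCC matched 2 of 6 BMP or TGF-beta targets (0 of 1 that fell, against 16.8%). All 7 motifs searched are given, on both strands over the same 250 bases, and none of the matches printed overlapped a match of another motif. The search was run with the calls known and nothing is read from the shares. Every gene that fell and held a match is printed with its match in capitals: Zfp36 at chr7:28379229-28379348 (minus strand), Per1 at chr11:69098778-69098897 (plus strand) and Tef at chr15:81802541-81802660 (plus strand).
Zfp36: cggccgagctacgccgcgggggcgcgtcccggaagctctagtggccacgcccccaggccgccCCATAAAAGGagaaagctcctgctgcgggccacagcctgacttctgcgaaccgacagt
Per1: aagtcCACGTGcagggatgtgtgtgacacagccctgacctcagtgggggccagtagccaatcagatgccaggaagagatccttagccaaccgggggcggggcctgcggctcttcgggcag
Tef: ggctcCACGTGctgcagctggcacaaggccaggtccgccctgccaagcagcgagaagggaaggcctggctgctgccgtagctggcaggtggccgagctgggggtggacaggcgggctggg

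Among genes of energy metabolism, 5 of 75 nuclear-encoded respiratory chain genes rose and 0 fell, Ndufa1, Cox5a, Atp5e, Ndufa3 and Ndufa4 (2.93% of all tested genes rose). Cox5a had 11.99, 59.5, 17.8 and 28.4 at Day1 and 154, 266, 202 and 147 at Day7 (log2 difference 2.87 ± 0.82 SE, adjusted p = 0.0388). The list's median of 1.07 turned to -1.07 when scaled to all reads. Of 75 ribosomal protein genes 0 were called, with a median of -0.05 (-1.70 when scaled to all reads). Pkm2, pyruvate kinase, was the 1 of 18 glycolysis genes that rose (log2 difference 2.72 ± 0.82 SE, adjusted p = 0.0453), and Hist1h1c, a linker histone, the 1 of 25 tested histone genes (104, 242, 203 and 252 at Day1 and 1351, 1925, 1554 and 1915 at Day7; log2 difference 3.13 ± 0.90 SE, adjusted p = 0.0388). Tropomyosins Tpm1 and Tpm2 rose together with Myl9 on the smooth muscle list (3 of 12), while Acta2 and Myh11, which define smooth muscle, did not pass. Scaled to all reads, Tpm1, Tpm2 and Myl9 had differences of 0.37, 0.81 and 2.08 and did not pass, and the list's median went from 1.71 to 0.22. Of 23 interferon-stimulated genes Ifit1 rose (log2 difference 2.50 ± 0.75 SE, adjusted p = 0.0436), but it was at 0.42 and did not pass when scaled to all reads. Rsad2 reached 38090 in Day7 replicate 3 against 138 in replicate 1 and did not pass (adjusted p = 0.133). Of 13 endothelial genes, Clec4g rose (log2 difference 3.05 ± 0.86 SE, adjusted p = 0.0366), and Cldn5 and Cdh5 were too low to test. With 2.93% of all tested genes higher, a list with 1 call is given here for that gene and not as a change of its class.

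No member of the 2 liver lists passed in either direction, and of the lists described these had the widest range of mean level among the Day7 libraries. None of 21 acute phase genes and none of 33 other hepatocyte genes was called. The lists do not hold every liver gene: Serpina1e, on neither list, fell and is given below. Alb, albumin, had 369, 414, 454 and 1755 at Day1 and 5281, 16.5, 152 and 1402 at Day7, and Apoa2, an apolipoprotein, had 247, 597, 441 and 791 at Day1 and 6493, 36.9, 81.4 and 3371 at Day7. Day7 replicates 1 and 4 were above every Day1 library for Apoa2, and replicates 2 and 3 were below. Mean levels of the hepatocyte list spanned 6.84 log2 units at Day7 and 2.13 at Day1. Its median difference was -0.31, -2.30 when scaled to all reads and, with the sign reversed, 0.46 with the term for Y-linked reads. Steroidogenic (4 tested), adipocyte (6) and skeletal muscle (7) lists held 0 calls.

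**Figure D4:**
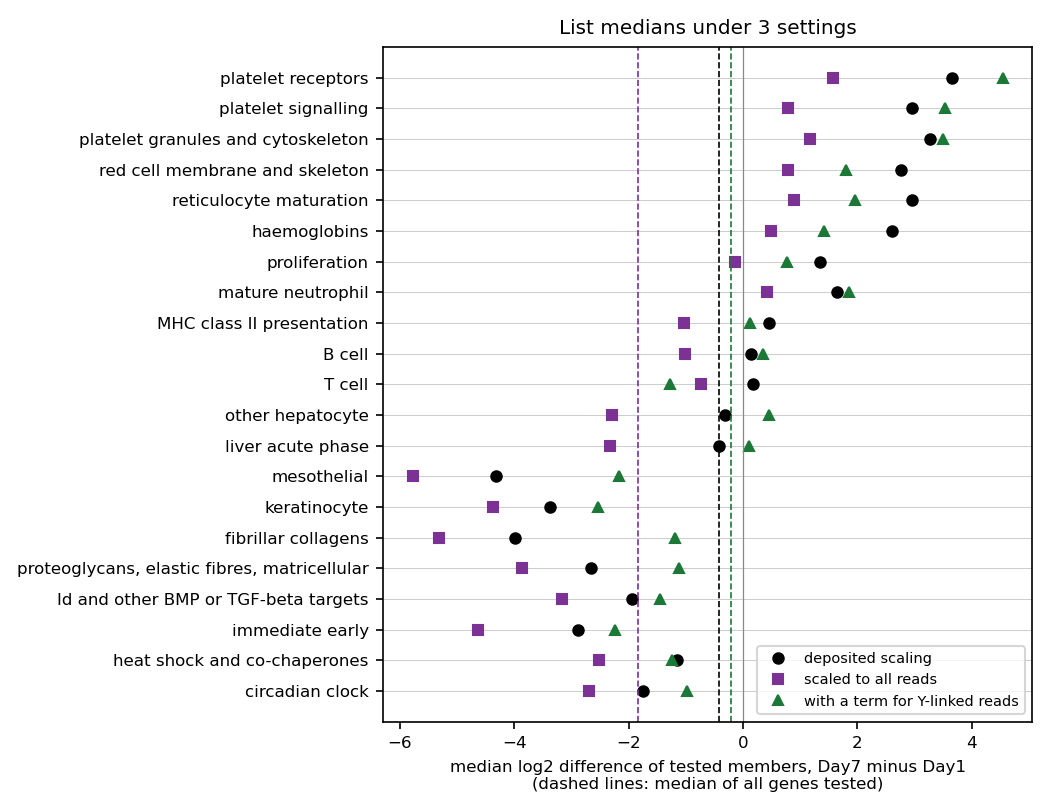
Median log2 difference, Day7 minus Day1, of the tested members (x axis) of 21 gene lists (y axis) with the deposited scaling (black circles), scaled to all reads (purple squares) and under the Y-linked term (green triangles); dashed lines mark the median of all tested genes in each. The platelet medians stay above 0 and the mesothelial and matrix medians below 0 in all 3, while proliferation, MHC class II, B cell, T cell and liver medians change sign.

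Several of the strongest changes lay outside the lists. Ttll11, a tubulin polyglutamylase, had 6.55, 10.1, 5.31 and 0.856 at Day1 and 129, 259, 98.1 and 109 at Day7 (log2 difference 4.63 ± 1.05 SE, adjusted p = 0.0224), and the adaptor Nck2 had 4.08, 11.9, 12.9 and 4.05 at Day1 and 220.5, 243, 74.02 and 187 at Day7 (log2 difference 4.34 ± 1.06 SE, adjusted p = 0.0254). Fhl1, a LIM protein, had 8.03, 77.1, 44.2 and 37.3 at Day1 and 645, 849, 440.4 and 543 at Day7 (log2 difference 4.18 ± 1.00 SE, adjusted p = 0.0253), and Klhl6 and the platelet-list gene Bin2 rose by 4.19 and 4.47. None of these genes overlapped between the groups. Gadd45a, a growth arrest gene, rose with a much larger spread (55.99, 14.5, 19.2 and 0.778 at Day1 and 77.5, 141, 1317 and 204 at Day7; log2 difference 4.14 ± 0.98 SE, adjusted p = 0.0249). Lars2, mitochondrial leucyl-tRNA synthetase, had 339, 181, 351 and 186 at Day1 and 949, 2251, 25130 and 11100 at Day7 (log2 difference 4.29 ± 1.15 SE, adjusted p = 0.0330), and Mir5102 had 41.8, 21.2, 38.5 and 21.02 at Day1 and 92.1, 264, 4405 and 1444 at Day7 (log2 difference 4.39 ± 1.14 SE, adjusted p = 0.0296). The ratio of Lars2 to Mir5102 was 5.71 to 10.3 and that of Lars2 to Gm15564 2.34 to 3.05 in all 8 libraries, a comparison chosen after the values were seen; whether these genes share reads was not tested. Among the falls, Tmem151a had 28.7, 132, 79.03 and 162 at Day1 and 0.550, 1.53, 0 and 5.65 at Day7 (log2 difference -5.23 ± 1.10 SE, adjusted p = 0.0162). Serpina1e, an alpha-1-antitrypsin gene of liver with near-identical copies, had 15.8, 168, 56.2 and 359 at Day1 and 2.13, 0, 6.79 and 0.665 at Day7 (log2 difference -5.12 ± 1.12 SE, adjusted p = 0.0204).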

How the data were processed

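The deposited table holds 1 signal per gene and library, called CPM by the authors in the file name; per the submitters' processing notes STAR 2.7.10, HTSeq 2.0.1 and the build mm9 were used. For annotation, strand setting and scaling the entry is: not given in the sources used here. Column sums differ from those of true CPM: each value is a whole number of reads times the value of 1 read in that library (100% of values within 0.001 reads), so the signal is reads scaled to an effective library size, and reads were recovered from it. Groups and replicate numbers came from the titles.

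Log2(value + 1) was fitted with limma 3.58.1 in R 4.3.3, its variance prior following the mean level, on the 12 libraries with time as the factor; the 6h libraries enter only the estimate of the spread. P-values were adjusted by Benjamini-Hochberg over 10109 genes at a threshold of 0.05. Alternatives were other pseudocounts (0.25 and 4), filters, scalings, array weights, 8 libraries alone, a replicate block, a term for libraries with reads of Ddx3y, Eif2s3y, Kdm5d or Uty, edgeR 4.0.16, DESeq2 1.42.0 and each library left out; edgeR with the Y-linked term and the libraries without Y-linked reads alone were added after seeing the data. In a test on simulated counts of 10109 genes, the fit found 23 of 100 true 8-fold changes, 92 of 100 true 64-fold changes and 8 false ones. Each gene was drawn independently, without shifts shared by many genes within a library. The 8 false calls therefore give no error rate for the real contrast.

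The 59 gene lists (1378 genes, 910 tested; 60 of the genes that rose and 110 of those that fell are on them) and the gene groups were chosen with earlier results of these data known. Named genes are the 15 largest rises and falls among called, non-overlapping genes with a mean of at least 10, up to 4 changed and the 2 most abundant members of each list, and the Y-linked genes; members named beyond these, for their role, were picked after their values were seen. Of the changed genes on the lists, 1 is counted but otherwise not reported here. Promoters are from RefSeq (GRCm38.p6). Positions are given only for those promoters, on that build; no mm9 annotation was used here.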

Additional observations from a re-analysis of the deposited data

Results flagged for a closer look

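Among the named genes and 4 library measures, 426 groups of 4 libraries were looked at for a library standing apart from the other 3. Dixon's test at the 95% level was used (critical value 0.829). Genes were taken on log2(value + 1). Total reads, genes detected, haemoglobin share and value of 1 read were taken unchanged. In 27 groups a library did so, where chance gives about 5.0%. At Day7 the libraries lower than the rest, with their deposited values, were replicate 4 for F2rl2 (179), replicate 3 for Nfe2 (282), Ccl5 (1.23), Csnk1e (13.6), Dbp (0) and Mmp23 (0). Libraries higher than the rest at Day7 were replicate 1 for Lgals7 (1.03), Tgfbr2 (4.68), Col5a2 (0.0688), Adamts1 (0.344), Sbsn (1.86) and Hoxb2 (0.0688), replicate 2 for Rgmb (0.191) and Mfap2 (6.12), and replicate 4 for Siglech (8.65), Col6a5 (2.66), Hspg2 (1.66), Ror1 (1.33) and Wnt11 (0.333). Several of these highs are 1 or a few reads against 0 in the other libraries. At Day1, replicate 1 was apart for Trim58 (0.989, the only library with reads), Dbp (18.5), Serping1 (51.9) and Fmod (7.42), the last 3 as the lowest. Day1 replicate 2 was apart for Smurf2 (10.7), replicate 3 for Rplp0 (47.7), and replicate 4 for Ahsa1 (59.3) and Bambi (63.5).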

How the results depend on the processing

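Genes higher and lower at Day7 numbered 296 and 497 as reported. They were 190 and 356 with a pseudocount of 0.25, 323 and 429 with 4, 19 and 50 with no filter (19521 genes tested), 320 and 245 for a mean of at least 10 (4445 tested), 12 and 3681 scaled to all reads, 20 and 3268 scaled outside haemoglobin, 666 and 990 with TMM on the 8 libraries, 198 and 753 with median-of-ratios scaling, 1072 and 1451 with array weights, 789 and 1103 for the 8 libraries alone, 0 and 2 in edgeR, 500 and 1046 in DESeq2, 0 and 0 with the term for Y-linked reads, in edgeR with it (1351 at an unadjusted p under 0.05) and among libraries without Y-linked reads alone (921). With 1 library left out they ranged from 0 to 566 and from 3 to 852. The cause of these moves was not tested, apart from the number of genes tested in the 2 filters and of samples where libraries were left out.

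Deviations of same-numbered Day1 and Day7 libraries from their group means correlated at -0.25, 0.058, -0.0067 and 0.016. These values cannot tell whether same-numbered samples share an origin, which the labels do not say. The replicate block gave 243 higher and 406 lower. Of 131 named genes that changed, 130 kept their direction in each of the 28 other settings that tested them (111 of the 131 with a mean of at least 10, all 131 in the others), and Col6a5 was at 0.36 in edgeR with the Y-linked term. Depth limits low genes most in Day7 replicate 3.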
